A study of Mus musculus with 18 samples.

Results

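The 46 genes described here are imprinted genes of the mouse, that is, genes at which the copy inherited from one parent is expressed more than the other, together with a few of their close neighbors. They were chosen by gene symbol from a list, and all 46 were found among the 27179 gene identifiers of the deposited count tables. Of these identifiers, 20944 with at least 1 count in a library of the iHoxc6, iHoxc8, iHoxc9 or iHoxc10 neurons were tested. The list was proposed after *Grb10* had been seen among the largest differences between iHoxc8 and control neurons. *Igf2* had been seen among those between iHoxc10 and control neurons. The values of the iHoxc8, iHoxc9 and iHoxc10 lines are therefore given below as a description. The comparisons that are tested, iHoxc6 against control and control against day 2, reuse the same control libraries. Their p-values for *Grb10* and *Igf2* are thus not independent of that choice. RNA-seq libraries were made from embryoid bodies of mouse embryonic stem cells that were differentiated into spinal motor neurons and interneurons with retinoic acid and the Hedgehog agonist SAG, which every group received. There were 6 groups of 3 libraries, each library from an independent differentiation. Day 2 progenitors came from the line Ainv15(iCre) after 2 days of differentiation with no doxycycline. Control neurons came from the line Ainv15(iFlag.Hoxc6) at day 4, also without doxycycline. The iHoxc6 neurons were the same line given 3 µg/ml doxycycline for 48 h, which switches on a Flag-tagged *Hoxc6*, and the iHoxc8, iHoxc9 and iHoxc10 neurons came from the lines Ainv15(iFlag.Hoxc8), Ainv15(iFlag.Hoxc9) and Ainv15(iFlag.Hoxc10), treated in the same way. Each of these is a separate embryonic stem cell line, and no uninduced sample of the iHoxc8, iHoxc9 or iHoxc10 line was analysed here.

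The library codes at the start of the sample labels, which look like sequencing run identifiers, were shared by control and iHoxc6 and by iHoxc9 and iHoxc10, whereas iHoxc8 and day 2 each had a code of their own. Only iHoxc6 against control therefore compared cells of 1 line with 1 code. In every other comparison against control, the cell line, the library code and the induced Hox gene (or, for day 2, the day of differentiation) cannot be told apart.

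Imprinted genes lie in clusters, and in most clusters a differentially methylated region that keeps the mark of the parental germline sets which copy is expressed. At the *H19*-*Igf2* domain the insulator protein CTCF binds the unmethylated maternal copy, so that enhancers act on *H19* there and on *Igf2* on the paternal copy. In other domains a long noncoding RNA from one copy silences its neighbors on that copy, as *Airn* does for *Igf2r*. Many imprinted genes act in growth: *Igf2* and *Dlk1* promote it, while *Cdkn1c*, *Grb10* and *Igf2r* restrain it. In neurons imprinting of some genes differs from other tissues, and *Grb10* is the textbook case, with maternal expression in most tissues and paternal expression in neurons. The libraries counted RNA from both copies together, so no value below says which parental copy was expressed.

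Promoters of *Grb10*, *Igf2*, *Dlk1* and *Meg3*, which are described below, are shown first for their CG content. Each is 300 bases of RefSeq sequence (build GRCm38.p6), 250 before and 50 after an annotated start, on the strand of the gene, with CG dinucleotides, the sites of DNA methylation, in capitals.

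*Grb10*, chr11:12037371-12037670, minus strand: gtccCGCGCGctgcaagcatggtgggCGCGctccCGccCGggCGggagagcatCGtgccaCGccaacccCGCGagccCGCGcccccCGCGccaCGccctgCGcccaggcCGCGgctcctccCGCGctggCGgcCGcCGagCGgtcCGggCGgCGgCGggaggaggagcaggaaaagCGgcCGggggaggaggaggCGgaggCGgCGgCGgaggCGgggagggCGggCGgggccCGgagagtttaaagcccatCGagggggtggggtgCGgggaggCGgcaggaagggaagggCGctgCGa

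*Grb10*, chr11:12027922-12028221, minus strand: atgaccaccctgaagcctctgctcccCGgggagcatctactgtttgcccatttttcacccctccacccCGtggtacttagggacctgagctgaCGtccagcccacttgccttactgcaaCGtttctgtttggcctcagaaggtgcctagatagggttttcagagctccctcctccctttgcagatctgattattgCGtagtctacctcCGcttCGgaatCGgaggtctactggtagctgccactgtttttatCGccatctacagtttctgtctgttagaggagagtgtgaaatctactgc

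*Igf2*, chr7:142661222-142661521, minus strand: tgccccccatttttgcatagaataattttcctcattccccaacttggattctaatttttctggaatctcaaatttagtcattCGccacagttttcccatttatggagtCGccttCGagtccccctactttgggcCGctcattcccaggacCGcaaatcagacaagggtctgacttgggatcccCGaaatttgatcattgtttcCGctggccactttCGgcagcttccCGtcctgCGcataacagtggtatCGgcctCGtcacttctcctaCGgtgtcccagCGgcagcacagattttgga

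*Igf2*, chr7:142658755-142659054, minus strand: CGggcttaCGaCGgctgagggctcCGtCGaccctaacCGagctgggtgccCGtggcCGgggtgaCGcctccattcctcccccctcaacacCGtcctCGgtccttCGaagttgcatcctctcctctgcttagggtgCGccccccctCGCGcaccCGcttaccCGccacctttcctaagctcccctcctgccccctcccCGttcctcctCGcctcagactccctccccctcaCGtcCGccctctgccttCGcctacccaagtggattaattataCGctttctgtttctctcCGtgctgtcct

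*Dlk1*, chr12:109452573-109452872, plus strand: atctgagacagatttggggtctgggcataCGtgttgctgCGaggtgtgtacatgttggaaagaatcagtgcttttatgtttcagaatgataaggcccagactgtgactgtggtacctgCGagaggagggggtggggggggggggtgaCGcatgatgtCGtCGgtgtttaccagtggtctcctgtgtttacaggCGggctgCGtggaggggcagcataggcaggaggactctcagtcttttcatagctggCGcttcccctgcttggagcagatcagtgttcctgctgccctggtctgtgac

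*Meg3*, chr12:109540746-109541045, plus strand: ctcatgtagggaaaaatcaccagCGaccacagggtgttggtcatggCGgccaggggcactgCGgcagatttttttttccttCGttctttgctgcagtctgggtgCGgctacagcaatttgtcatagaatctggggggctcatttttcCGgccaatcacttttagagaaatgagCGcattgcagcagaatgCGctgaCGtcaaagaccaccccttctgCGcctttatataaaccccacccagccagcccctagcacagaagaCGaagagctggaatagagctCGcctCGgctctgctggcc

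The upstream *Grb10* window held 45 CG dinucleotides and the downstream one 9. The *Igf2* windows shown held 14 and 24, the *Dlk1* window 9 and the *Meg3* window 13. *Igf2* has further windows with 2 and 7 and *Meg3* one with 1, which are not printed. A promoter window was found for 39 of the 46 members, with 60 windows in all, and their median was 14.5 CG dinucleotides beside 7 over all 32851 windows of the table. The letters TGCCGC, on either strand, which are the motif bound by the imprint-maintaining zinc-finger protein ZFP57 when methylated, were present in 13 of the 60 member windows (21.7%) and in 11.6% of all windows. Windows of 12 members held it, including the upstream *Grb10* window, the first *Igf2* window shown and the *Meg3* window. These are matches of letters, and neither methylation nor binding was measured. No window was found for *Peg10*, *Sgce*, *H19*, *Cdkn1c*, *Peg13* and *Trappc9*. Windows on chromosome 18, where *Impact* lies, were left out for the members but not from all windows, so none is given for *Impact*.

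Several members are also hosts of microRNAs. The RefSeq table places 1 microRNA gene each in *H19*, *Igf2*, *Mest* and *Usp29*, 2 in *Meg3*, 3 in *Rian* and 10 in *Mirg*. Mature sequences from *H19*, *Igf2*, *Meg3* and *Rian* are given here with the seed (bases 2 to 8) in capitals.

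mmu-miR-675-5p, in *H19*: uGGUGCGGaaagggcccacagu

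mmu-miR-675-3p, in *H19*: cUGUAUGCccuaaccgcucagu

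mmu-miR-483-5p, in *Igf2*: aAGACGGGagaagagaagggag

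mmu-miR-483-3p, in *Igf2*: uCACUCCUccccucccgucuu

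mmu-miR-770-3p, in *Meg3*: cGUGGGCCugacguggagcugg

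mmu-miR-370-3p, in *Rian*: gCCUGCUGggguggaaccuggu

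No 2 of these 6 shared a seed. The first pair lies in *H19*, the second in *Igf2*, and the last lines are from *Meg3* and *Rian*. The poly(A)-selected libraries measured the host transcripts and not the mature microRNAs.

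Library totals ran from 24498630 to 33168533 counts. *Hoxc6* was at 514 CPM (library counts scaled to CPM after TMM normalization) in iHoxc6 and 3.18 CPM in control, *Hoxc8* at 389 CPM in iHoxc8, *Hoxc9* at 224 CPM in iHoxc9 and *Hoxc10* at 430 CPM in iHoxc10. The iHoxc10 neurons also held *Hoxc6* at 47.3 CPM. The summed level of 8 motor neuron markers was 192 to 357 CPM in day 2 libraries and 3110 to 5060 CPM in all day 4 libraries, most of it *Tubb3*, a general neuronal tubulin (2940 CPM in control). Markers closer to motor neuron identity moved in both directions. *Isl2* averaged 45.4 CPM in control and 7.45 CPM in iHoxc10, and *Lhx3* 68.3 CPM and 22.2 CPM. *Lhx4*, *Mnx1* and *Chat* were also lower in iHoxc10, while *Isl1* (95.5 CPM in control, 127 CPM in iHoxc10) and *Slc18a3* (224 and 267 CPM) were higher. *Chat* averaged 36.2 CPM in control and 12.7 CPM in iHoxc9, where *Slc18a3*, *Isl1*, *Mnx1* and *Lhx3* were lower too. *Isl2* (46.4 CPM) and *Lhx4* (51.8 CPM, beside 51.6 CPM in control) were close to control in iHoxc9. *Isl2* also averaged less in iHoxc6 (15.3 CPM) and iHoxc8 (20.9 CPM) than in control, as did *Chat* (18.1 and 18.4 CPM). The means of *Lhx3*, *Lhx4*, *Mnx1* and *Slc18a3* were lower in both lines too, while that of *Isl1* was higher (108 and 148 CPM). Control and iHoxc6 thus differed in these markers as well. The part of the motor neuron markers in the values of the members was not tested. Library control replicate 2 stood apart from the other control libraries in several members, described with them below.

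At this depth 42 members reached 1 CPM in at least 1 group, 38 reached 10 CPM, and 4 stayed under 1 CPM in every group. Those 4 were *Rasgrf1*, a neuronal Ras activator with 0 to 2 counts in every library, the transcription factor gene *Ascl2* with 0 to 4 counts, and *Phlda2* and *Slc22a18*, genes of the *Kcnq1*-*Cdkn1c* domain best known in placenta. *Phlda2* had 11 to 36 counts in the day 2 libraries and 0 to 2 in all others, and *Slc22a18* had 5 to 24 and 0 to 3. No fold change is given for these 4, although both of the latter are counted below as called lower in control than at day 2.

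Per kilobase of exon, the highest member in control neurons was *Nnat*, which encodes the neuronal membrane protein neuronatin, at 1463 CPM per kb. It was followed by the noncoding RNA *H19* at 399 CPM per kb, by *Ndn* (necdin, a growth suppressor of postmitotic neurons) at 158 CPM per kb, by *Mest* at 99.3 CPM per kb and by *Gnas* and *Peg13* at 71.8 and 70.9 CPM per kb. *Igf2* stood at 0.908 CPM per kb in control, *Dlk1* at 1.25 CPM per kb and *Grb10* at 2.73 CPM per kb. At day 2 the order was led by *Peg10* at 169.5 CPM per kb, *Grb10* at 89.2 CPM per kb and *Nnat* at 86 CPM per kb.

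**Figure D1:**
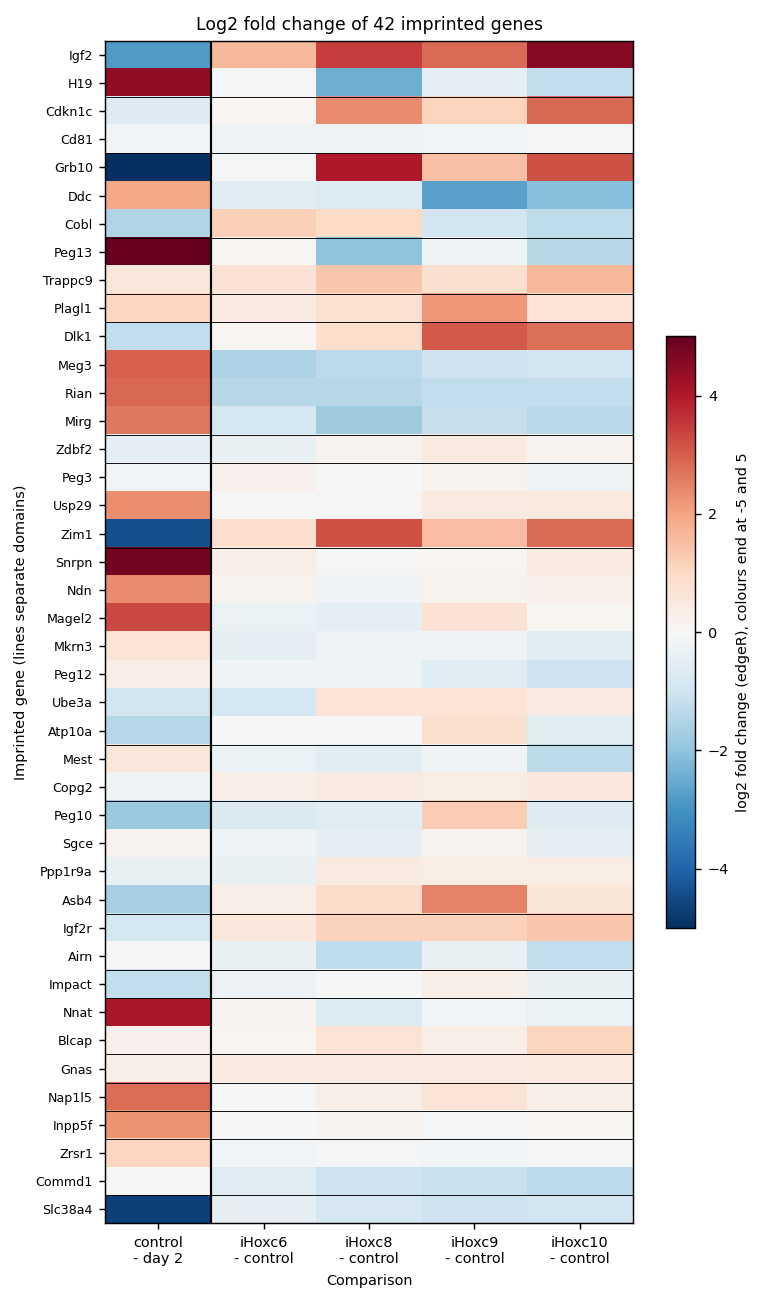
Log2 fold changes (edgeR) of the 42 members that reached 1 CPM in a group, in rows ordered by domain, for control minus day 2 and for each induced line minus control, in columns. Red is higher and blue lower in the first-named group, and colors end at -5 and 5, beyond which *Peg13* (6.63) and *Grb10* (-5.03) lie in the first column; *Igf2* is red in all 4 columns of induced lines and *Grb10* in the 3 from iHoxc8 on.

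The first comparison asked how the members differed between day 2 progenitors and control neurons. *Nnat*, *Snrpn*, *Ndn*, *Magel2*, *Peg13* and *H19* were among those that rose, and *Grb10*, *Igf2*, *Slc38a4* and *Zim1* among those that fell. Of 46 members, 30 passed an adjusted p under 0.01 (edgeR quasi-likelihood test, Benjamini-Hochberg over all genes tested), 16 higher and 14 lower in control. This was 65.2% of the members, beside 42.4% of all genes tested (21.2% higher and 21.2% lower). With a log2 fold change beyond 2 as well, 18 were called (12 higher, 6 lower; 39.1%) beside 12.6% of all genes (6.74% higher, 5.82% lower). The median absolute log2 fold change was 1.47 over the members and 0.81 over all genes tested. Of the 24 members listed as paternally expressed, 12 rose and 5 fell, and of the 19 listed as maternally expressed, 4 rose and 8 fell. The summed level of the motor neuron markers was higher in control, and the summed level of 5 pluripotency markers went from between 7.32 and 11.9 CPM to between 0.835 and 1.23 CPM over the same groups, and the part of cell composition in these counts was not tested. Fewer cells of a type and less RNA per cell cannot be told apart in these mixed cultures.

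*Peg13*, a noncoding RNA inside an intron of *Trappc9* (chr15:72805602-72810324), was at 3.74, 4.79 and 1.62 CPM at day 2 and at 359.9, 322 and 322 CPM in control. It rose 99.1-fold, with log2 fold change 6.63 ± 0.25 and adjusted p = 7.54e-15. *Trappc9*, a subunit of a vesicle-tethering complex, had a log2 fold change of 0.55 ± 0.25 and was not called.

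*Snrpn*, which encodes a splicing protein at the Prader-Willi domain, was at 0.337, 0.366 and 0.156 CPM at day 2 and at 8.64, 7.62 and 7.86 CPM in control. It rose 27.9-fold (log2 fold change 4.80 ± 0.28, adjusted p = 1.88e-12). *Snrpn* shares exons with *Snurf*, so their reads could be divided between the genes. *Ndn*, of the same domain, was at 106, 116 and 117 CPM at day 2 and at 633, 574 and 547 CPM in control, a rise of 5.17-fold. *Magel2*, which encodes a regulator of protein sorting from endosomes, rose 9.76-fold, from 2.86, 3.33 and 3.87 CPM to 29.1, 34.9 and 34.5 CPM. Of the 7 members of the domain, *Mkrn3* also rose (log2 fold change 0.66 ± 0.20), *Peg12* was not called, and 2 fell. The falling members were *Ube3a*, the ubiquitin ligase gene of Angelman syndrome, with a log2 fold change of -0.95 ± 0.28, and the phospholipid flippase gene *Atp10a* with -1.44 ± 0.29. The *Mkrn3* call was lost without day 2 replicate 2 or 3 or control replicate 1 or 3 (log2 fold change 0.46 to 0.64), and the *Ube3a* call without day 2 replicate 1 or 2 or control replicate 2 or 3 (-0.93 to -0.65). *Ube3a* is overlapped by the antisense transcript *Snhg14*, and the strand setting of the counting is not given in the sources used here.

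*Nnat* was at 155, 199 and 118 CPM at day 2 and at 2701, 2502 and 2825 CPM in control, and it rose 17-fold (log2 fold change 4.09 ± 0.20, adjusted p = 1.8e-13). *Blcap*, the gene around it, was at 36 ± 2.6 CPM and 41.7 ± 0.552 CPM (SD, n = 3 each) and was not called. The nucleosome assembly gene *Nap1l5* was at 3.37, 4.66 and 1.72 CPM at day 2 and 25.7, 19.4 and 22.5 CPM in control. The phosphatase gene *Inpp5f* was at 45.4, 41.9 and 29.1 CPM at day 2 and 225, 148 and 179 CPM in control. Both rose, 6.96-fold and 4.74-fold, and the groups did not overlap. *Usp29*, a deubiquitinase gene that starts beside *Peg3*, rose 5.07-fold from 4.04, 3.06 and 2.28 CPM to 20.4, 13.4 and 13.7 CPM. *Peg3* itself, a zinc-finger gene, was at 269, 239.7 and 225 CPM at day 2 and 233, 269 and 167 CPM in control, and those ranges overlapped (log2 fold change -0.13 ± 0.19, adjusted p = 0.615). *Ddc*, the decarboxylase of dopamine and serotonin synthesis, went from 46.9, 53.1 and 31.8 CPM to 179, 176 and 151 CPM, a rise of 3.84-fold.

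*H19* was at 51.5, 67.3 and 18.3 CPM at day 2 and at 1412, 418 and 1118 CPM in control. Every control library lay above every day 2 library, although control replicate 2 was well under the other control libraries, and the rise was 21.5-fold (log2 fold change 4.43 ± 0.46, adjusted p = 3.25e-08). *Igf2*, its growth factor neighbor, moved in the opposite direction, from 39.9, 34.6 and 37 CPM to 3.79, 6.78 and 5.01 CPM. It fell 7.18-fold (log2 fold change -2.84 ± 0.30, adjusted p = 4.62e-08). The maternally expressed noncoding RNAs of the *Dlk1*-*Meg3* domain rose together. *Meg3* went from 53.1, 61.7 and 39.8 CPM to 577, 108 and 546 CPM, *Rian* from 169, 159 and 93.4 CPM to 1529, 456 and 1141 CPM and *Mirg* from 7.31, 6.66 and 4.47 CPM to 48.1, 18.2 and 49.1 CPM. In each of them control replicate 2 was the lowest control library, and the log2 fold changes were 2.99 ± 0.49, 2.89 ± 0.32 and 2.65 ± 0.27. *Dlk1*, the paternally expressed Notch ligand relative of the domain, was called lower in control (log2 fold change -1.22 ± 0.38, adjusted p = 0.00982), but the groups overlapped, since its day 2 libraries were at 8.29, 7.29 and 33.8 CPM and its control libraries at 4.85, 10.01 and 6.4 CPM. Without day 2 replicate 3 the value was -0.14 and *Dlk1* was not called, nor was it without control replicate 1 (-1.01) or control replicate 3 (-1.17).

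*Grb10*, an adaptor that dampens insulin and growth factor signaling (chr11:11930499-12037428), was at 743, 741 and 947 CPM at day 2. In control it was at 23.1, 32.9 and 18.5 CPM. It fell 32.6-fold (log2 fold change -5.03 ± 0.24, adjusted p = 6.83e-14). The amino acid transporter gene *Slc38a4* fell 25.1-fold, from 69.8, 58.2 and 69.4 CPM to 2.76, 3.54 and 1.53 CPM. *Zim1*, a zinc-finger gene of the *Peg3* domain, was low in both, at 4.41, 3.46 and 2.19 CPM at day 2 and 0.193, 0.0385 and 0.225 CPM in control (log2 fold change -4.40 ± 0.48). *Peg10*, a gene of retrotransposon origin, was at 1262, 1129 and 999.9 CPM at day 2 and 262, 408 and 264 CPM in control and fell 3.63-fold. *Asb4*, also of its domain, went from 1.78, 1.33 and 1.53 CPM to 0.45, 0.616 and 0.412 CPM and fell 3.14-fold.

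Further members that passed were *Plagl1* (log2 fold change 1.07 ± 0.30), a zinc-finger regulator of growth, and *Zrsr1* (1.06 ± 0.17), a splicing factor gene, both higher in control. *Impact* (-1.22 ± 0.16), a regulator of translation, *Cobl* (-1.50 ± 0.43), an actin nucleator, and *Igf2r* (-0.88 ± 0.22), which takes up and clears IGF2, were lower. *Mest* was at 308, 295 and 193 CPM at day 2 and 310.1, 532 and 334 CPM in control, with a log2 fold change of 0.56 ± 0.20 and adjusted p = 0.0208. *Cdkn1c*, a cyclin-dependent kinase inhibitor gene, was at 29.7, 38.7 and 63.2 CPM at day 2 and 33.3, 19 and 31.2 CPM in control (-0.65 ± 0.24, adjusted p = 0.0257). The groups overlapped for *Cdkn1c* and not for *Mest*, and neither was called. The *Cobl* libraries overlapped, at 7.14, 9.12 and 34.9 CPM at day 2 and 5.14, 9.43 and 3.56 CPM in control. Single libraries decided some of these calls: *Cobl* was not called without day 2 replicate 3 (log2 fold change -0.43, adjusted p = 0.246), control replicate 1 (-1.39, 0.0256) or control replicate 3 (-1.24, 0.0335). *Plagl1* missed 0.01 without day 2 replicate 3 (adjusted p = 0.0123), control replicate 1 (0.0126) or control replicate 2 (0.0169), and *Igf2r* without day 2 replicate 3 (0.0145) or control replicate 3 (0.0125). *Cdkn1c* passed without day 2 replicate 1 (log2 fold change -0.90, adjusted p = 0.00325) and *Mest* without control replicate 1 (0.71, 0.0087).

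**Figure D2:**
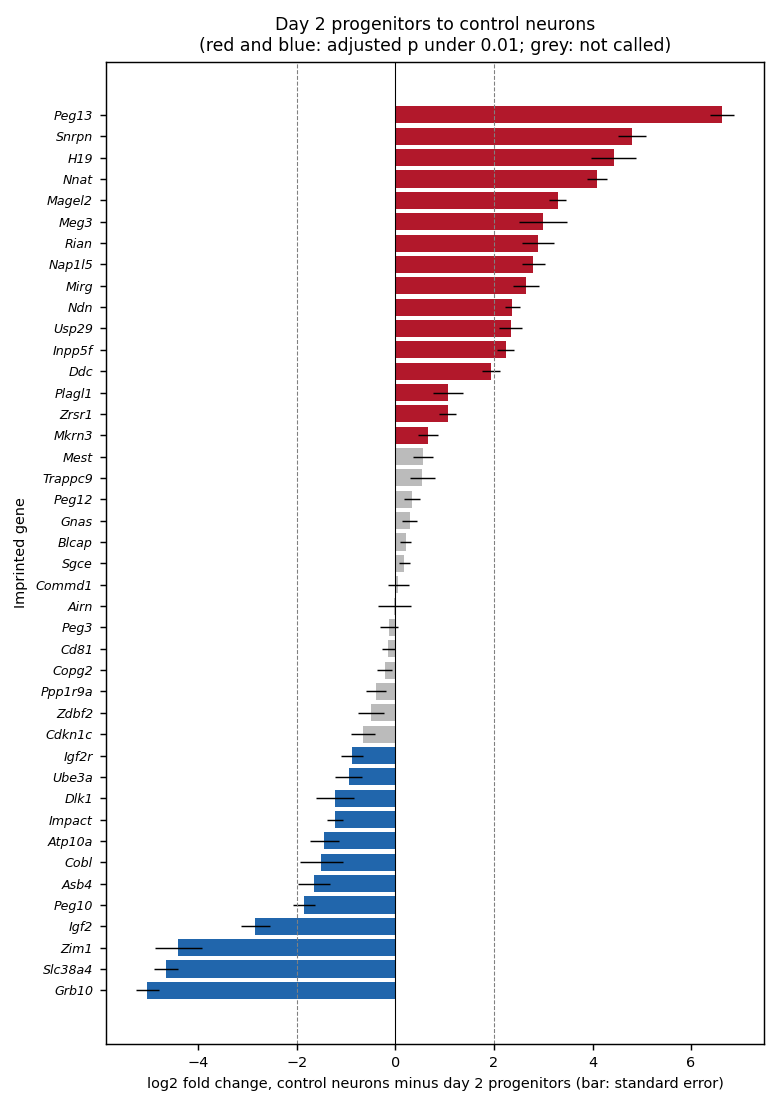
Log2 fold change of 42 members between control neurons and day 2 progenitors, with standard errors as bars and dashed lines at -2 and 2. Red and blue bars passed adjusted p under 0.01 in the edgeR test and grey bars did not; *Peg13*, at 6.63, and *Grb10*, at -5.03, are at the ends.

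The second comparison asked how the members differed within 1 line after 48 h of doxycycline, which switches on *Hoxc6*. Control received no doxycycline, so the drug and *Hoxc6* cannot be told apart here. *Igf2* was the 1 member that passed adjusted p under 0.01, and it rose (2.17% of the members, beside 0.587% of all genes tested, 0.363% higher and 0.224% lower). No member was called when a log2 fold change beyond 2 was also asked (beside 0.115% of all genes), and 14 members had an unadjusted p under 0.05, beside 21.2% of all genes. The median absolute log2 fold change was 0.35 over the members and 0.30 over all genes. *Igf2* was at 3.79, 6.78 and 5.01 CPM in the control libraries and at 15.9, 21.6 and 10.9 CPM in the iHoxc6 libraries. These control libraries also served the contrast in which *Igf2* was first seen, so its p-value here is not independent of that choice. Every iHoxc6 library lay above every control library, and the difference was 3.12-fold (log2 fold change 1.64 ± 0.30, adjusted p = 0.00395). Its log2 fold change ranged from 1.40 to 1.88 over the alternatives run and its adjusted p from 4.75e-05 to 0.0378. It passed 0.01 in neither the fit to these 2 groups (0.0153) nor the fit with a filter of at least 10 counts in at least 3 libraries (0.0104). It also missed without control replicate 1 (0.0378), control replicate 3 (0.0329), iHoxc6 replicate 1 (0.018) or iHoxc6 replicate 2 (0.031). *H19* was at 846, 1251 and 647 CPM in iHoxc6 and overlapped control.

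The noncoding RNAs of the *Dlk1*-*Meg3* domain were lower in iHoxc6 than in control replicates 1 and 3, while control replicate 2 lay within or below their iHoxc6 range. *Meg3* was at 156, 124 and 147 CPM, *Rian* at 396, 458 and 345 CPM and *Mirg* at 22.6, 22 and 18.6 CPM in iHoxc6. Against all 3 control libraries the log2 fold changes were -1.53 ± 0.46, -1.38 ± 0.30 and -0.87 ± 0.25, with adjusted p of 0.0668, 0.0169 and 0.0597, so none was called. Without control replicate 2, 6 members were called beside 5.2% of all genes: *Igf2* (log2 fold change 1.88, adjusted p = 0.00192), *Trappc9* (1.14, 0.0034), *Meg3* (-1.98, 0.00258), *Rian* (-1.74, 0.000201), *Mirg* (-1.21, 0.000584) and *Commd1* (-0.84, 0.00706). With DESeq2 on all libraries, *Igf2* and *Rian* (-1.43, 0.000776) were called, beside 3.84% of all genes.

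Control replicate 2 was also low in noncoding RNAs that are not members. Of those named next, *Kcnq1ot1* is itself imprinted and is on the second list of imprinted genes described below. The summed level of *Malat1*, *Neat1*, *Snhg11*, *Miat* and *Kcnq1ot1*, a list chosen after its values were seen, was 138.5 CPM in that library and 376 and 462.9 CPM in the other control libraries. It was 99.6 CPM in iHoxc8 replicate 2 and 155.5 CPM in iHoxc10 replicate 3, where *Meg3* was also lowest of its group. The summed level of 6 ventral progenitor markers was 257.8 CPM in control replicate 2 and 152.1 and 157.8 CPM in the other control libraries. The part of these in the *Meg3*, *Rian* and *Mirg* values was not tested.

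Other members were close between iHoxc6 and control. *Peg13* was at 374, 359 and 351 CPM in iHoxc6 (log2 fold change 0.11 ± 0.19) and *Grb10* at 22.9, 22.7 and 25.3 CPM (-0.07 ± 0.20), both overlapping control. *Peg3* had a log2 fold change of 0.21 ± 0.19, *Snrpn* 0.28 ± 0.20, *Mest* -0.35 ± 0.20 and *Igf2r* 0.51 ± 0.22. The libraries of *Peg3* and *Mest* overlapped between the groups, and those of *Snrpn* and *Igf2r* did not, but none of these passed the test.

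In the 3 remaining induced lines more members lay past the threshold against control, and no test is read from these differences. The fit placed 13 members past adjusted p 0.01 in iHoxc8 (7 higher, 6 lower; 28.3% beside 2.12% of all genes, 1.03% higher and 1.09% lower), 15 in iHoxc9 (9 higher, 6 lower; 32.6% beside 14.1%, 6.95% higher and 7.13% lower) and 17 in iHoxc10 (8 higher, 9 lower; 37% beside 14.4%, 6.67% higher and 7.75% lower). With the fold threshold added the counts were 6, 5 and 6 members, 13%, 10.9% and 13% of them beside 0.22%, 2.7% and 1.48% of all genes. The members were chosen with these contrasts known, so nothing about the list is read from these shares. All comparisons with control share the same 3 control libraries. Members past the threshold in all 3 lines were *Igf2*, *Cdkn1c*, *Grb10* and *Igf2r*, higher, and *Rian*, *Mirg* and *Commd1*, lower. For *Rian* control replicate 2 lay within the range of each of these lines, and for *Mirg* within that of iHoxc9.

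**Figure D3:**
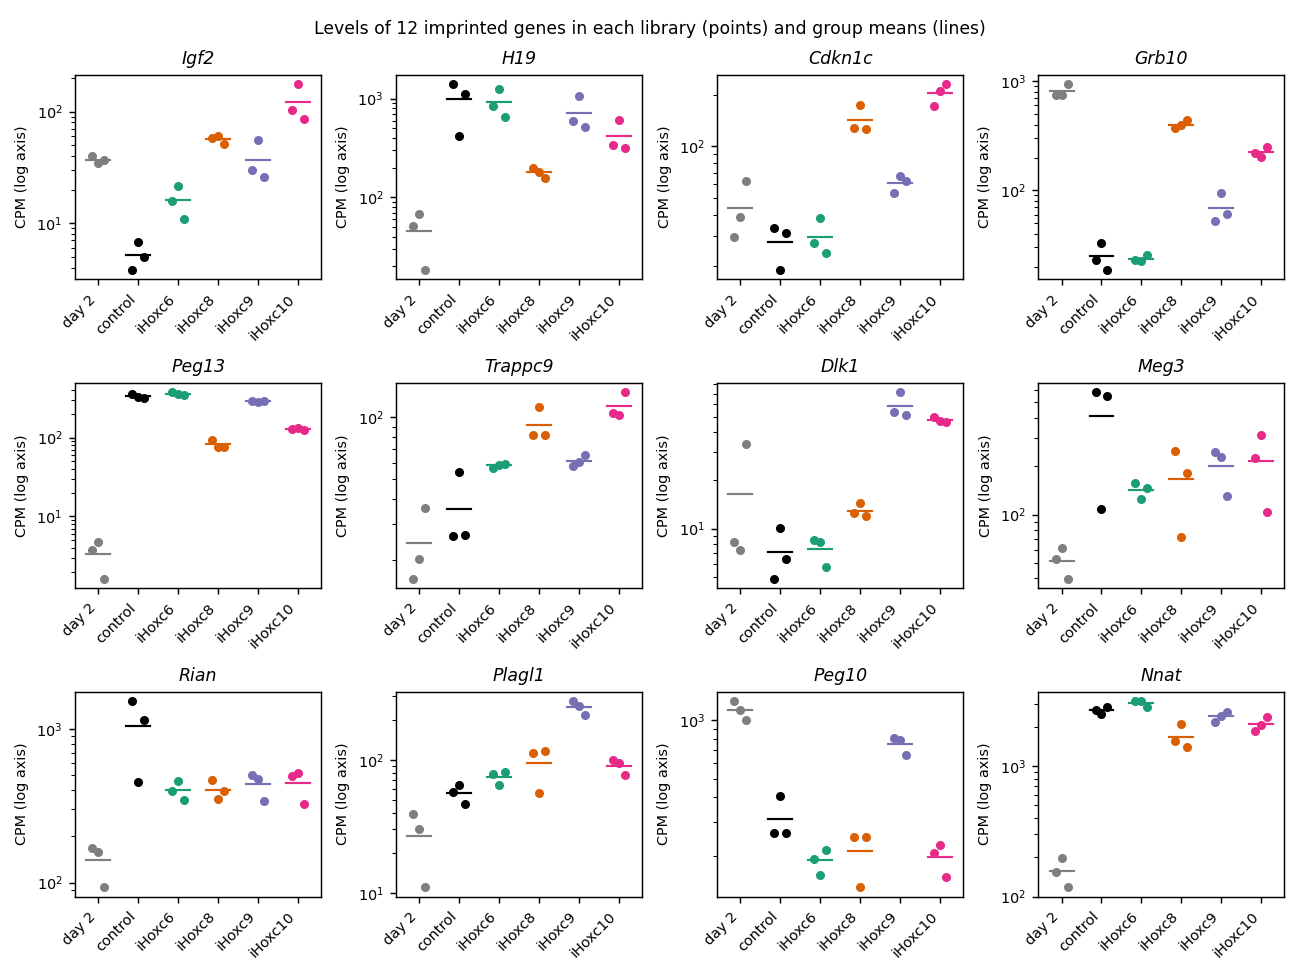
Level in CPM, on a log axis, of 12 members in each of the 18 libraries, with points for libraries and a line for the mean of each group of 3. *Igf2* is lowest in control and highest in iHoxc10, *Grb10* and *Cdkn1c* are high in iHoxc8 and iHoxc10, and *Plagl1* and *Peg10* stand out in iHoxc9 among the day 4 groups.

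At the *H19*-*Igf2* domain, *Igf2* (chr7:142650768-142666816) was at 58.6, 61 and 51.4 CPM in the iHoxc8 line, 30, 55.3 and 25.8 CPM in the iHoxc9 line and 103, 178 and 85.2 CPM in the iHoxc10 line. All 9 libraries lay above the control range, by 11-fold, 7.16-fold and 23.6-fold in the mean. *H19* (chr7:142575530-142578146) was at 199, 180.5 and 156 CPM in iHoxc8, under every control library, with a log2 fold change of -2.46 ± 0.42. It was at 594, 1061 and 517 CPM in iHoxc9 and 343, 612 and 314 CPM in iHoxc10, ranges that overlapped control. In iHoxc6, iHoxc9 and iHoxc10, replicate 2 was the highest library of its group for *Igf2* and for *H19* alike. The same libraries were also highest of their group in the summed level of 4 floor plate markers, at 1006 CPM beside 815.5 and 710.8 CPM in iHoxc6, at 443.7 CPM beside 323.5 and 297.3 CPM in iHoxc9 and at 877.2 CPM beside 576.4 and 537.5 CPM in iHoxc10. In control that sum was 443.8 to 582.8 CPM, below every iHoxc6 library and every iHoxc8 library (676.7 to 759.4 CPM). The iHoxc9 libraries lay below the control range and the iHoxc10 libraries overlapped it. The part of these markers in the *Igf2* and *H19* values, also in iHoxc6 against control, was not tested. The GENCODE gene *Gm49394* shares 62.8% of the exon bases of *Igf2* on the same strand.

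The ratio of *H19* to *Igf2* counts was close between the libraries of each induced line, including those where both levels were high. On the log2 scale it was 5.73, 5.86 and 5.89 in iHoxc6 and 4.31, 4.26 and 4.33 in iHoxc9. The iHoxc8 libraries were at 1.77, 1.57 and 1.60, and the iHoxc10 libraries at 1.73, 1.79 and 1.88. Within each induced line the SD was 0.03 to 0.11, while the means were 5.83 in iHoxc6, 4.30 in iHoxc9, 1.80 in iHoxc10 and 1.65 in iHoxc8. The control libraries were at 8.54, 5.95 and 7.80 and the day 2 libraries at 0.37, 0.96 and -1.02, a much wider spread (SD 1.34 and 1.01). The order of the means from high to low was control, iHoxc6, iHoxc9, iHoxc10, iHoxc8 and day 2, and the ranges of neighbors in that order did not overlap except between iHoxc8 and iHoxc10. A ratio within a library does not depend on its scaling to a total, and it shows that the genes changed unequally, not which one changed.

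*Cdkn1c*, in the neighboring *Kcnq1*-*Cdkn1c* domain, was at 27.3, 38.4 and 23.9 CPM in iHoxc6, overlapping control. In iHoxc8 it was at 127, 173 and 126 CPM, in iHoxc9 at 53.5, 66.8 and 62.9 CPM and in iHoxc10 at 172, 209.6 and 231 CPM. Every library of these 3 lines was above every control library, by 5.1-fold, 2.19-fold and 7.32-fold. *Cd81*, a tetraspanin gene of the domain, had group means between 116.8 and 154 CPM over all 6 groups.

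*Grb10* was at 369.6, 394 and 438 CPM in iHoxc8, with 52.1, 94.9 and 60.4 CPM in iHoxc9 and, in the iHoxc10 libraries, 221, 200.4 and 247 CPM. The differences from control were 16.1-fold, 2.78-fold and 8.97-fold, and the day 2 libraries, at 741 to 947 CPM, were above them all. *Ddc*, next to *Grb10* on chromosome 11, was at 114, 121 and 115 CPM in iHoxc6 and at 100.2, 118 and 96.5 CPM in iHoxc8, both below control. In iHoxc9 it was at 21.8, 25.3 and 29.8 CPM and in iHoxc10 at 35, 32 and 47.9 CPM, 6.57-fold and 4.41-fold below control. *Cobl*, on the other side of *Grb10*, was higher than in every control library in iHoxc6 (11.96 to 16 CPM) and iHoxc8 (11.5 to 12.8 CPM), and reached 1.58 to 3.37 CPM in iHoxc10, below all of control. The 3 neighbors thus had 3 different orders of lines, with *Grb10* highest in iHoxc8, *Ddc* in control and *Cobl* in iHoxc6 among the day 4 groups. The log2 ratio of *Grb10* to *Ddc* was 3.99, 3.80 and 4.90 at day 2 and -2.95, -2.42 and -3.03 in control. It was -2.31, -2.42 and -2.19 in iHoxc6 and stood between 1.02 and 2.66 in every library of the other induced lines.

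*Peg13* was at 94, 76.3 and 75.8 CPM in the iHoxc8 line, 288, 285 and 292 CPM in the iHoxc9 line and 129, 131 and 126 CPM in the iHoxc10 line. These libraries lay below the control range in each line, by 4.08-fold in iHoxc8 and 2.6-fold in iHoxc10, while in iHoxc9 the log2 fold change was -0.22 ± 0.19. Its host *Trappc9* was at 81.8, 112 and 82.2 CPM in iHoxc8, with 57.8, 60.3 and 65.6 CPM in iHoxc9 and, in the iHoxc10 libraries, 105, 102 and 132 CPM, against 26.2, 53.9 and 26.6 CPM in control. It was above control in every library of these lines. The log2 ratio of *Peg13* to *Trappc9* was 3.78, 2.58 and 3.60 in control, 2.72, 2.61 and 2.56 in iHoxc6 and 2.32, 2.24 and 2.15 in iHoxc9. It was 0.20, -0.56 and -0.12 in iHoxc8 and 0.30, 0.36 and -0.07 in iHoxc10, and negative in all day 2 libraries. *Peg13* and *Trappc9* share no exon bases.

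**Figure D4:**
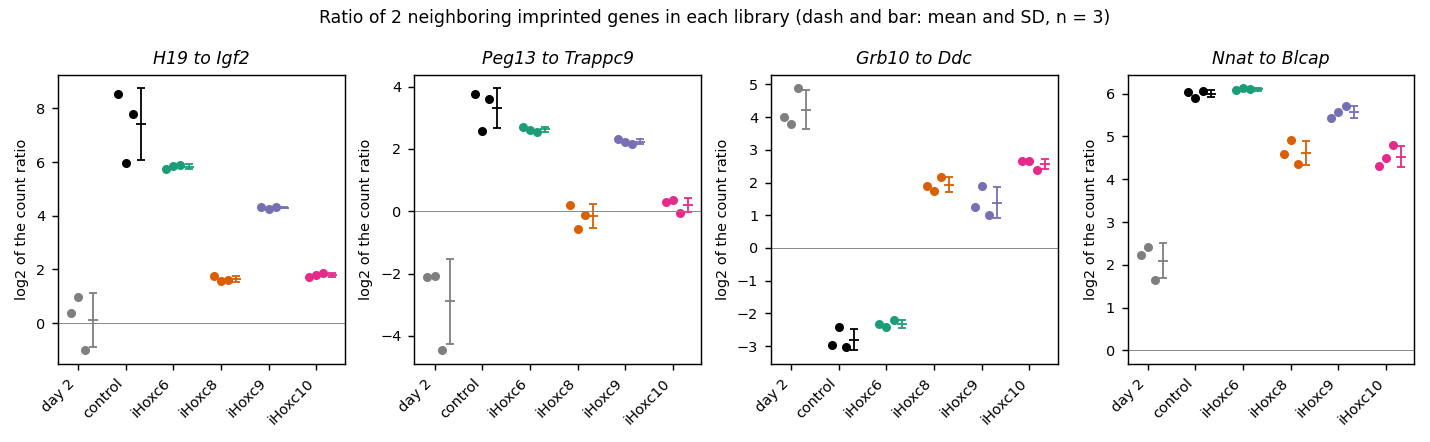
Log2 of the ratio of counts of neighboring members in each of the 18 libraries, with the mean and SD of each group (n = 3) beside the points. *H19* to *Igf2* is tight within each induced line and differs between most of them, and iHoxc8 and iHoxc10 stand together at the lower end of the day 4 groups for *H19* to *Igf2*, *Peg13* to *Trappc9* and *Nnat* to *Blcap*.

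At the *Dlk1*-*Meg3* domain, *Dlk1* (chr12:109452485-109463336) was at 8.47, 8.19 and 5.77 CPM in iHoxc6 and 12.4, 14.4 and 11.9 CPM in iHoxc8. It was at 53.6, 71.3 and 51.4 CPM in iHoxc9 and 50.3, 47.3 and 46.7 CPM in iHoxc10. The last 2 lines were 8.32-fold and 6.81-fold above control, with no overlap, while iHoxc6 overlapped control and iHoxc8 lay just above it. The noncoding RNAs of the domain, expressed from the other parental copy, did not follow *Dlk1*. *Rian* was at 464, 353 and 393 CPM in the iHoxc8 line, 503, 472 and 341 CPM in the iHoxc9 line and 493, 521 and 326 CPM in the iHoxc10 line, against 1529, 456 and 1141 CPM in control. *Meg3* was at 248, 72.2 and 180.3 CPM, 244, 229 and 130.3 CPM and 224, 314 and 103 CPM in the same lines, and *Mirg* at 13.5, 9.65 and 10.8 CPM, 17.4, 19.1 and 15.1 CPM and 16.3, 16.2 and 12.9 CPM. All 3 RNAs were below control replicates 1 and 3 in all 12 libraries of the induced lines. Control replicate 2 lay within or below the range of the *Meg3* values in every induced line, as it did for *Rian*, and for *Mirg* in iHoxc6 and iHoxc9, so these differences rest on the other control libraries.

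Levels of mesenchymal genes are given here because *Igf2*, *H19* and *Dlk1* are also well known from mesenchyme. All 8 listed mesenchyme markers were measured, and their sum was 17.9 to 24.4 CPM at day 2 and 5.61 to 9.28 CPM in control. It was 4.14 to 6.87 CPM in iHoxc6, 2.17 to 4.32 CPM in iHoxc8, 3.58 to 7.53 CPM in iHoxc9 and 1.23 to 1.72 CPM in iHoxc10. The iHoxc9 library with the highest sum, replicate 2, was also highest for *Igf2*, *H19* and *Dlk1* in that line, and the part of these markers was not tested. *Lum*, a defining marker, averaged 0.08 CPM or less in every group.

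*Plagl1* was at 277, 252 and 217 CPM in iHoxc9, 4.44-fold above the control libraries at 57, 64.3 and 46.7 CPM. It was at 78.3, 64.7 and 81.3 CPM in iHoxc6, 112, 56.7 and 117 CPM in iHoxc8 and 99.3, 95.3 and 76.4 CPM in iHoxc10. Only the iHoxc9 libraries stood far apart from all other groups, and the highest library elsewhere was at 117 CPM. *Peg10* was at 808, 796 and 665 CPM in iHoxc9, against 137.5 to 251 CPM in the libraries of the other induced lines and 262 to 408 CPM in control. *Asb4*, a ubiquitin ligase component gene near *Peg10*, was at 2.19, 3.74 and 2.23 CPM in iHoxc9 and under 1.01 CPM in every library of the other day 4 groups. *Sgce*, which shares a bidirectional promoter with *Peg10*, differed far less, with group means between 31.7 and 51 CPM. Its 3 iHoxc9 libraries, at 52.1, 51.4 and 49.6 CPM, were nonetheless above all other libraries, and *Ppp1r9a* had group means between 23.6 and 40.7 CPM. The interneuron marker *Sim1*, singled out after its values were seen, averaged 0.461 CPM in control, 5.31 CPM in iHoxc10 and 17.1 CPM in iHoxc9, while *Evx1* (0.71 CPM in control, 0.341 CPM in iHoxc9), *Gata3* (0.249 and 0.219), *En1* (0.606 and 0.775) and *Pax2* (0.828 and 1.69) stayed low. The part of *Sim1* in the *Plagl1*, *Peg10* and *Asb4* values was not tested.

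In the *Peg3* domain, *Zim1* was at 1.75, 0.668 and 1.88 CPM in iHoxc8, with 0.43, 0.559 and 0.358 CPM in iHoxc9 and, in the iHoxc10 libraries, 1.58, 1 and 0.77 CPM. These values were 9.07-fold and 7.1-fold above control in iHoxc8 and iHoxc10, but in control *Zim1* was at 0.193, 0.0385 and 0.225 CPM, close to the level of 3 counts per library (0.0964 to 0.116 CPM). *Peg3* had group means between 200.3 and 258.5 CPM over all 6 groups, and *Usp29* between 15.8 and 22.3 CPM at day 4. In the *Snrpn* domain, *Snrpn* was at 6.54 to 11.5 CPM and *Ndn* at 427 to 752 CPM in every day 4 library. *Magel2* was at 59.1, 54.2 and 50.3 CPM in iHoxc9, above the 29.1, 34.9 and 34.5 CPM of control, and *Peg12*, an inhibitor of GSK3, was lower than control in iHoxc9 and iHoxc10, with log2 fold changes of -0.62 ± 0.16 and -1.02 ± 0.16. *Mkrn3*, *Ube3a* and *Atp10a* passed no threshold in these 3 lines.

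*Mest*, which encodes a hydrolase-like protein of the endoplasmic reticulum, was at 282, 225 and 300 CPM in the iHoxc8 line, 360.4, 326 and 347 CPM in the iHoxc9 line and 166, 131 and 177 CPM in the iHoxc10 line. The iHoxc10 libraries lay below every other library, 2.49-fold below control. Its neighbor *Copg2*, a coatomer subunit gene, had group means between 73.3 and 104.6 CPM. The genes share 912 exon bases on opposite strands. *Igf2r* was at 67.8, 39.1 and 64.2 CPM in iHoxc8, with 55.6, 61.8 and 52.1 CPM in iHoxc9 and, in the iHoxc10 libraries, 69.8, 73.5 and 56.5 CPM, against 29.6, 28.8 and 18 CPM in control. It was higher than control in all of these libraries, by 2.24-fold, 2.22-fold and 2.61-fold. Its antisense RNA *Airn* was low throughout, with group means between 0.487 and 1.203 CPM.

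*Nnat* was at 1567, 2098 and 1394 CPM in the iHoxc8 line, 2197, 2432 and 2584 CPM in the iHoxc9 line and 1863, 2058 and 2375 CPM in the iHoxc10 line, and *Blcap* at 65.3, 69.9 and 68 CPM, 51.3, 50.8 and 49.8 CPM and 94.5, 91.3 and 85.5 CPM. *Blcap* was above the control libraries in all 3 lines, 1.62-fold in iHoxc8 and 2.17-fold in iHoxc10. *Nnat* was below the control range in iHoxc8 and iHoxc10. The log2 ratio of *Nnat* to *Blcap* was 6 ± 0.08 in control and 6.10 ± 0.03 in iHoxc6 (SD, n = 3 each), 4.62 ± 0.28 in iHoxc8, 5.57 ± 0.14 in iHoxc9 and 4.53 ± 0.25 in iHoxc10. Among the remaining members, the copper metabolism gene *Commd1* was lower than control in the 3 lines, with log2 fold changes of -1.04 ± 0.21, -1.12 ± 0.21 and -1.31 ± 0.21, while *Zrsr1*, which lies inside it, had group means between 26.6 and 29.3 CPM at day 4. *Slc38a4* was at 1.04 to 1.75 CPM in iHoxc8, 0.978 to 1.43 CPM in iHoxc9 and 1.25 to 1.46 CPM in iHoxc10. *Gnas*, *Inpp5f*, *Nap1l5*, *Impact* and *Zdbf2* passed no threshold against control in any induced line.

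The iHoxc9 and iHoxc10 lines share a library code, and 12 members lay past adjusted p 0.01 between them (8 higher and 4 lower in iHoxc9; 26.1% beside 4.99% of all genes, 2.6% higher and 2.4% lower). This is also a description, since it reuses the libraries above. No member passed the fold threshold as well, beside 1.31% of all genes, and 18 had an unadjusted p under 0.05, beside 18.9% of all genes. The members higher in iHoxc10 were *Cdkn1c* (3.34-fold), *Igf2* (3.29-fold), *Grb10* (3.22-fold) and *Blcap* (1.79-fold). The members higher in iHoxc9 were *Peg10* (3.85-fold), *Asb4* (3.6-fold), *Plagl1* (2.75-fold), *Atp10a* (2.68-fold), *Peg13* (2.24-fold), *Mest* (2.18-fold), *Sgce* (1.6-fold) and *Impact* (1.59-fold). The libraries of the lines did not overlap for any of these 12. *Dlk1* had a log2 fold change of 0.29 ± 0.36 and was not past the threshold, although its libraries did not overlap, and *Meg3*, *Rian* and *Mirg* overlapped. Same-numbered libraries of these lines were correlated in their deviations, and with the replicate block in a fit to these groups alone 29 members (18 higher, 11 lower) lay past the threshold, *Dlk1* (0.24 ± 0.06) among them, beside 27.6% of all genes. With the block in the fit to all groups, 11 members did, beside 4.77%.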

How the data were processed

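Poly(A) RNA of 18 samples (6 groups of 3) had been sequenced with a stranded mRNA library kit. The authors aligned reads to mm10 with STAR 2.7.0c and counted them over RefSeq genes with featureCounts. The deposited values are raw counts per Entrez identifier, with no normalization; the strand setting of the counting is not given in the sources used here. The submitters' processing notes also name Picard 2.8.2 and DESeq2 1.20.0.

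Identifiers were matched to symbols through a RefSeq table (GRCm38.p6), which named 25275 of 27179. Genes with at least 1 count in a library of an induced line (20944) were kept, so genes counted only in control or day 2 libraries were not tested. They were fitted in 1 model over the 18 libraries with edgeR 4.0.16 (TMM, quasi-likelihood test, R 4.3.3). Benjamini-Hochberg adjustment was over all the genes kept. Standard errors of log2 fold changes were derived from the fold change and its F statistic. A gene was called at adjusted p under 0.01, and under the stricter rule also with a log2 fold change beyond 2. p-values are given for iHoxc6 against control and for control against day 2. Levels are TMM-normalized CPM, divided for comparisons between genes by kilobases of merged exon. Library totals (24498630 to 33168533 counts) put 3 counts at 0.0883 to 0.122 CPM, so levels near that are uncertain by counting error alone. Counts of 17847 genes were also simulated, modeled on iHoxc6 against control. Of these genes, 200 with a mean of at least 1 CPM were set to differ by 3 on the log2 scale. Under the stricter rule, edgeR recovered 99% with 0 other calls and DESeq2 1.42.0 recovered 100%. Smaller differences and a library that stands apart, as control replicate 2 does, were not simulated. The simulation therefore says nothing about a call such as that of *Igf2* in iHoxc6.

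The members, their domains and the other gene lists were chosen with earlier results of these data known. Values of every library are given for the 24 members that were called under the stricter rule in any comparison and reached 1 CPM in a group, or that were named for their role (*H19*, *Igf2*, *Grb10*, *Dlk1*, *Meg3*, *Peg3*, *Snrpn*, *Mest*, *Igf2r*, *Cdkn1c*); library values of *Trappc9*, *Blcap*, *Peg10* and *Sgce* were added after their values were seen, as neighbors of these. Same-numbered libraries of iHoxc9 and iHoxc10 deviated together (correlations 0.162, 0.177 and 0.211), so their numbers were taken to pair them, from the data and not from the labels. In the other comparisons the numbers did not pair the samples. Alternatives were DESeq2, a filter on low counts (10 or more in 3 or more libraries), a fold threshold of 1 on the log2 scale, fits to the compared groups alone, a replicate block and leaving out each library. The replicate block in the fit to iHoxc9 and iHoxc10 alone was added after the data were seen. No library was left out of the values in the report, and no 2 libraries of a group agreed within sampling noise. 1 marker gene and the summed level that rests on it are not reported here.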

Additional observations from a re-analysis of the deposited data

Results flagged for a closer look

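In several members every library of 1 induced line lay above, and every library of another lay below, all 3 control libraries. Of the members at 1 CPM or more in a library, 9 of 43 (20.9%) had this arrangement, beside 7.77% of all genes at that level. The members were chosen with differences of these lines from control known, so nothing about the list is read from these shares. None of these arrangements was tested. *Peg10*, *Sgce*, *Atp10a* and *Impact* also lay past adjusted p 0.01 between iHoxc9 and iHoxc10. That difference comes from the same libraries and adds no support. The values are ratios of the group mean of the higher line to that of the lower line. *Peg10* was above control in iHoxc9 and below it in iHoxc6, iHoxc8 and iHoxc10, with ratios of 4, 3.56 and 3.85. *Sgce*, at the same promoter, had the same arrangement with ratios of 1.32, 1.61 and 1.6. *Ppp1r9a*, further along that domain, was above control in iHoxc9 and below it in iHoxc6 (1.67).

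*Cobl* was above control in iHoxc6 and iHoxc8 and below it in iHoxc10, with ratios of 5.53 and 4.82. In the *Snrpn* domain, *Magel2* was above control in iHoxc9 and below it in iHoxc6 (2.1) and iHoxc8 (2.29), *Ube3a* was above in iHoxc9 and below in iHoxc6 (2.9), and *Atp10a* was above in iHoxc9 and below in iHoxc10 (2.67). *Impact* was above control in iHoxc9 and below it in iHoxc10 (1.59). *Nnat* was above control in iHoxc6 and below it in iHoxc8 (1.81) and iHoxc10 (1.45).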

How the results depend on the processing

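Cell line, library code and induced gene cannot be told apart outside iHoxc6 against control (iHoxc9 and iHoxc10 share the code alone), and 3 libraries a group limit every value. Alternatives were counted only for the 89 log2 fold changes of named members with an unadjusted p under 0.05 in the main fit. Values picked as clear differences could hardly reverse, so the counts do not say how stable the other values are. Of 1078 such values under the alternatives, 1037 kept their direction and their side of the threshold. Where no test was read, this meant a move of less than the spread. Of the rest, 20 no longer passed, 6 newly passed, 15 moved further and 0 reversed. With a fold threshold of 1 on the log2 scale, the members called were 1 in iHoxc6, 11 in iHoxc8, 13 in iHoxc9, 15 in iHoxc10 (each against control) and 9 in iHoxc9 against iHoxc10. At adjusted p under 0.01, iHoxc6 against control gave 0 members with the filter of at least 10 counts in at least 3 libraries. It gave 0 with only the compared groups fitted and 2 with DESeq2. With only the compared groups fitted, iHoxc8 against control gave 8. The share of all genes was not computed for these counts of members, except where given above with DESeq2. Nothing about the members is therefore read from them.

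Leaving out 1 library at a time, members past adjusted p 0.01 were 25 to 30 in control against day 2, 0 to 6 in iHoxc6, 8 to 16 in iHoxc8, 11 to 17 in iHoxc9, 14 to 22 in iHoxc10 and 9 to 11 in iHoxc9 against iHoxc10; with the fold threshold of 2 they were 18 to 19, 0 to 0, 5 to 7, 5 to 5, 6 to 7 and 0 to 1, in 11 to 12, 0 to 0, 4 to 6, 5 to 5, 5 to 6 and 0 to 1 domains. The iHoxc8 count was 8 without control replicate 3 or iHoxc8 replicate 3. The single member in iHoxc9 against iHoxc10 was *Igf2* (-2.13) without iHoxc9 replicate 2, *Peg10* without iHoxc9 replicate 3 (2.01) or iHoxc10 replicate 2 (2.05), and *Asb4* (2.01) without iHoxc10 replicate 1. The share of all genes was not computed for these counts, except where given above, so they describe only how far the counts depend on single libraries. The causes were not tested.

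With the replicate block, *Dlk1* in control against day 2 was at -1.18 and was not called. Where the numbers pair the libraries (iHoxc9 against iHoxc10), the block gave 11 members over all groups, beside 4.77% of all genes, and 29 in the fit to these groups alone.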

Other observations

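Imprinted genes outside the 46 members, from a second list chosen with earlier results known (31 of 37 listed genes tested), moved in some of the same domains. Around *Peg13*, the potassium channel gene *Kcnk9* averaged 0.198 CPM in control and 1.23 CPM in iHoxc8, with 0.135 CPM in iHoxc9 against 2.23 CPM in iHoxc10, and *Ago2*, which encodes the slicing Argonaute, averaged 50.5 CPM in control, 110.6 CPM in iHoxc8 and 118.3 CPM in iHoxc10. Their log2 fold changes against control were 2.65 ± 0.43 and 1.13 ± 0.21 in iHoxc8 and 3.51 ± 0.42 and 1.23 ± 0.21 in iHoxc10. In control *Kcnk9* was at 0.0964, 0.424 and 0.0749 CPM. There 3 counts per library were 0.0964 to 0.116 CPM, so its fold changes are uncertain. *Chrac1*, a neighbor of *Kcnk9* and *Ago2*, had lower means, with 29.9 CPM in control, 20.6 CPM in iHoxc8 and 16.3 CPM in iHoxc10. In iHoxc8 it overlapped control and was not past the threshold (log2 fold change -0.54 ± 0.22). Its iHoxc10 libraries, at 14.7 to 17.3 CPM, lay below the control libraries, at 20.7 to 44.1 CPM. In the *Dlk1* domain, *Rtl1*, a gene of retrotransposon origin, averaged 0.175 CPM in control, 2.48 CPM in iHoxc9 and 1.05 CPM in iHoxc10, and *Begain* averaged 10.5 CPM in control, 27.2 CPM in iHoxc9 and 19 CPM in iHoxc10. *Dio3*, also of that domain, averaged 0.525 CPM in control, 0.21 CPM in iHoxc9 and 0.273 CPM in iHoxc10 and was not called. The control libraries of *Rtl1*, at 0.0643, 0.385 and 0.0749 CPM, were likewise near 3 counts per library. *Sfmbt2*, a Polycomb-group gene, averaged 8.69 CPM in control, 1.39 CPM in iHoxc9 and 21 CPM in iHoxc10. None of the 31 was called in iHoxc6 against control, and 12 passed adjusted p under 0.01 in control against day 2 (edgeR), 6 in each direction, beside 42.4% of all genes. Past that threshold against control were 3 in iHoxc8 (2 higher, 1 lower), beside 2.12% of all genes. There were 7 in iHoxc9 (3 and 4), beside 14.1%, and 10 in iHoxc10 (6 and 4), beside 14.4%. Since the list was chosen with earlier results known, nothing about it is read from these counts.

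Factors that act in setting, keeping or removing imprints, the last being the *Tet* genes, were tested as a further list (17 of 18). In control against day 2, 11 passed adjusted p under 0.01, 2 higher and 9 lower in control, beside 42.4% of all genes, 21.2% in each direction. The higher genes were *Zfp57* (14.3 CPM at day 2, 71.8 CPM in control, log2 fold change 2.33 ± 0.16) and *Tet3* (0.99 ± 0.22), and the lower ones included *Uhrf1* (394 CPM and 112.6 CPM, -1.81 ± 0.24), *Dnmt3b* (-1.99 ± 0.24) and *Dnmt1* (-0.69 ± 0.20). None passed in iHoxc6 against control. Against control, 3 of the 17 lay past the threshold in iHoxc9, beside 14.1% of all genes. In iHoxc10 2 did, beside 14.4%, and in iHoxc8 no factor did. All of these were higher than control, and nothing about the list is read from these counts. *Dnmt3a* was higher in iHoxc9 (1.3 ± 0.17) and iHoxc10 (0.95 ± 0.17), as was *Tet1* (1.07 ± 0.24 and 0.88 ± 0.24). No methylation was measured in these libraries.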
